A study of Mus musculus with 3 samples.

Results

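The genes described here are 32 known targets and partners of ATF4, the transcription factor of the amino acid stress response, measured in mouse cells labelled as embryonic stem cells. They are a fixed list of regulators, enzymes of amino acid synthesis and amino acid transporters, chosen by name with earlier results of these data known. Of the 32 genes, 31 had a probe, among 20659 named genes on the array, and Pycr1 had no probe matched to it. There were 3 groups with 1 single-colour Agilent array each: wildtype cells, cells labelled LIFR KO and cells labelled gp130 KO, all grown under what the labels call standard conditions. LIFR is the receptor for the cytokine LIF, and gp130, encoded by Il6st, is the signal-transducing subunit it shares with the other receptors of the interleukin 6 family. The labels give neither the parental line nor the kind of lesion, nor whether a knockout is a single clone, and they name no agent that only some groups received.

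ATF4 is a basic leucine zipper factor whose mRNA is translated more when the initiation factor eIF2alpha is phosphorylated. That happens through kinases which sense uncharged tRNA, unfolded protein in the endoplasmic reticulum, double-stranded RNA or lack of heme, and the shared outcome is called the integrated stress response. ATF4 pairs with C/EBP proteins on a composite promoter element and raises genes that make, import and charge amino acids, together with feedback genes that end the response. Embryonic stem cells, the kind named by the labels, divide fast and use much serine, glycine and folate-bound carbon for nucleotide synthesis. Whether the cells measured here have that identity was not tested. An mRNA array measures the transcripts of these genes and neither the translation of Atf4 nor the phosphorylation of eIF2alpha.

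RefSeq promoters on GRCm38.p6, each 300 bases long from 250 before to 50 after the start of transcription, were found for 28 of the 32 genes, and not for Cth, Eif4ebp1, Slc7a3 and Slc7a5. The core of the composite element, TGATGNAA, read on both strands with N for any base, was in the promoter of 10 of the 28 genes (35.7%). Over all 27025 genes with a promoter, 4.51% held it. The genes were chosen as known targets and partners of ATF4, so the higher share among them is not independent of that choice. The stretches below are shown because ATF4 is known to act through this kind of element. Whether it acts through these matches was not measured. They include the promoters of Chac1 and Trib3, which differed most from wildtype on the gp130 KO array among the genes that were lower. Each runs 5′ to 3′ on the gene's own strand, with the match in capitals, and a match on the other strand reads TTNCATCA.
Chac1, chr2:119351029-119351076, plus strand: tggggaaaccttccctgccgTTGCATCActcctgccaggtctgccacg
Trib3, chr2:152344029-152344056, minus strand: tagctcaggtTTACATCAgccgggcggg
Nupr1, chr7:126625553-126625600, minus strand: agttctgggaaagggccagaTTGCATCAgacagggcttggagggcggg
Herpud1, chr8:94386297-94386344, plus strand: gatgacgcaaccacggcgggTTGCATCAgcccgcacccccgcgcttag
Asns, chr6:7693210-7693252, minus strand: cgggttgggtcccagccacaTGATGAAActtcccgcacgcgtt
Pck2, chr14:55540143-55540190, plus strand: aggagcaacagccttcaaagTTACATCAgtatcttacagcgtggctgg
Pycr1, chr11:120643824-120643871, minus strand: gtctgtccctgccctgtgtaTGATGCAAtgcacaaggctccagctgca
Slc7a11, chr3:50443633-50443699, minus strand: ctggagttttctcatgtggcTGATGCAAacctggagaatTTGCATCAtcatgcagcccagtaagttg
Slc1a4, chr11:20332700-20332727, minus strand: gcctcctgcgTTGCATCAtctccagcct
Vldlr, chr19:27216800-27216847, plus strand: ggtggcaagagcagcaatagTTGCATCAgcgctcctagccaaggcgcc

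The match nearest the start of transcription was that of Slc1a4, which begins 4 bases before it, and the most distant was that of Vldlr, at 200 bases before it. Trib3 was the one gene whose match lay inside the transcript, from base 15 on. Slc7a11 held 2 matches, in opposite orientation, at 66 and 47 bases before the start. The full cyclic AMP response element TGACGTCA, searched in the same way and sharing no base with a match above, was in 1 of the 28 promoters (3.57%) against 2.03% of all genes. That promoter belongs to Ppp1r15a, one of the genes that were higher on the LIFR KO array, and the stretch is shown for that reason.
Ppp1r15a, chr7:45526269-45526300, minus strand: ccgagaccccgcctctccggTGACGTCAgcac
The letters TTCCNGGAA, a strict form of the STAT site, were in 0 of the 28 promoters and in those of 1.35% of all genes. Looser forms of that site were not searched, so this count does not show that the promoters lack one. These are matches of letters in a window and no binding was measured.

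All values below are signals in scanner units, as the software processed them, and log2 ratios of these signals after each array was scaled to its own 75th percentile. With 1 array per group there was no error between cultures, no test and no p-value, and every difference is one between 2 arrays. The half-width quoted beside a ratio is the 95% half-width for a probe of median scatter, from probes spotted several times on an array, at 0.12 on the log2 scale for signals over 1000, 0.14 to 0.15 from 100 to 1000, and 0.32 to 0.59 under 100. It applies to a ratio of single spots, covers their scatter and leaves out that of cultures. The scanner's own error of a ratio was 0.20 or more for genes read from a single spot. All 31 genes passed the background flag on each array, against 13112 of 20659 named genes (63.5%), so no ratio among them is a bound. On the wildtype array 20 of the 31 probes had a signal over 1000, 5 lay from 100 to 1000 and 6 under 100. Signals of different probes depend on the probe's sequence and were not ranked as levels.

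**Figure D1:**
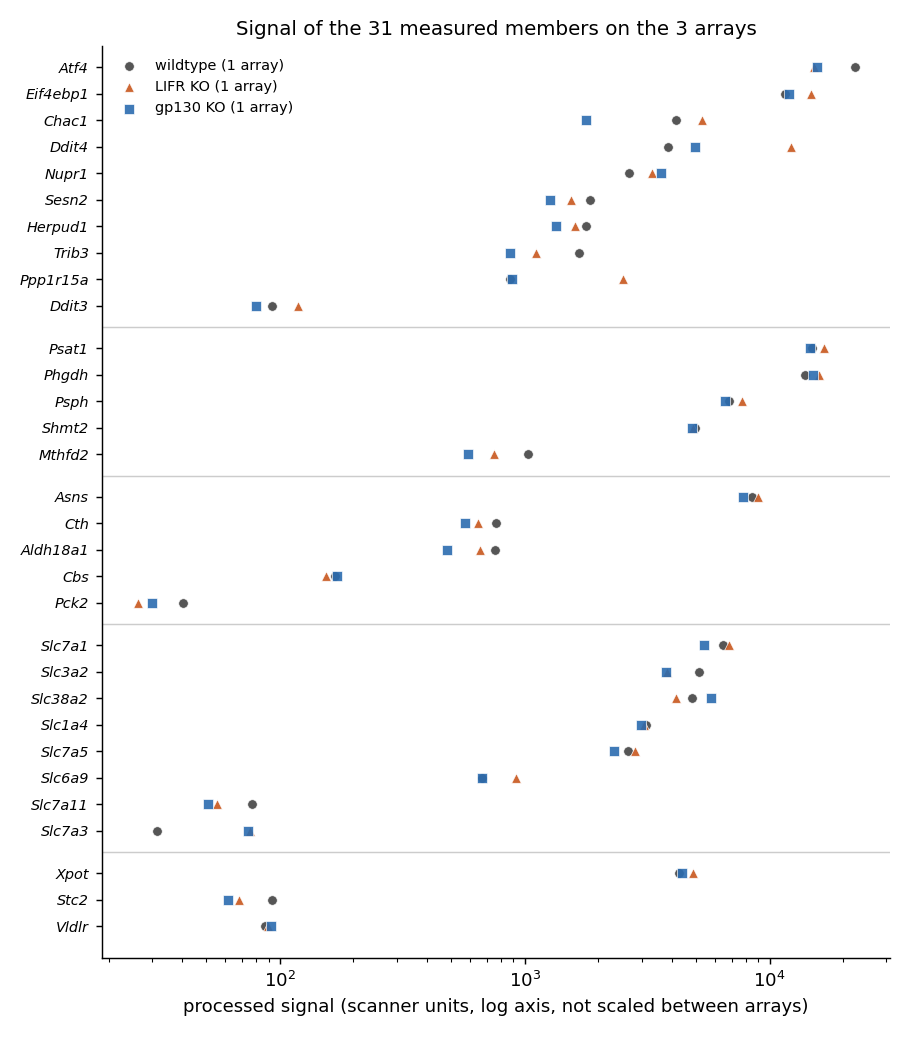
Processed signal of the 31 measured genes on the 3 arrays (wildtype, LIFR KO, gp130 KO), in scanner units on a log axis, without scaling between arrays, grouped by role and ordered by the wildtype signal, with 1 point per array. Ddit4 and Ppp1r15a stand to the right on the LIFR KO array, Chac1 to the left on the gp130 KO array, and Slc7a3 to the left on the wildtype array.

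Among the regulators and effectors of the stress response were 3 of the 4 genes that were at least 2-fold from wildtype in a knockout. Atf4 itself was read at 22254 on the wildtype, 15249 on the LIFR KO and 15548 on the gp130 KO array. Both knockout arrays were below wildtype, with log2 ratios of -0.72 (1.64-fold lower) and -0.49 (1.41-fold lower), each beyond the spot half-width. A second Atf4 probe, dimmer at 376, 236 and 255, gave -0.84 and -0.53. The size for the LIFR KO ran from -1.22 to -0.54 over the alternative processings, all on the same side.

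Trib3 codes for a pseudokinase that is induced by ATF4 and damps the response. Its signal was 1664 on the wildtype, 1115 on the LIFR KO and 871 on the gp130 KO array. Both knockouts were lower, by log2 ratios of -0.75 (1.68-fold) and -0.91 (1.88-fold), and 0.999% of all genes compared were as low on the gp130 KO array. Sesn2, a stress-induced inhibitor of mTORC1, lay at 1845, 1542 and 1274, with ratios of -0.43 and -0.51. Herpud1, which serves the degradation of proteins from the endoplasmic reticulum, gave ratios of -0.31 and -0.37. These 4 genes were the regulators that lay below wildtype on both knockout arrays.

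Chac1 codes for an enzyme that cleaves glutathione and is among the more selective ATF4 targets. Its signal was 4146 on the wildtype, 5312 on the LIFR KO and 1783 on the gp130 KO array. The gp130 KO array was therefore the low one, 2.28-fold below wildtype (log2 ratio -1.19, spot half-width 0.12) and 2.60-fold below the LIFR KO array (-1.38). Of all genes compared with wildtype, 0.583% were as low. On the LIFR KO array the ratio to wildtype was 0.19, above the half-width of 0.12 and below the scanner error of 0.20, and it turned negative, to -0.21, with the normexp background correction. That correction placed 3304 of all genes at least 2-fold above wildtype on the LIFR KO array, where 418 were otherwise.

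Ddit4 and Ppp1r15a went the other way and did so on the LIFR KO array. Ddit4, also called REDD1, restrains mTORC1 under stress, low oxygen and glucocorticoids. Its signal was 3838 on the wildtype, 12262 on the LIFR KO and 4943 on the gp130 KO array, so the LIFR KO array stood 2.84-fold above wildtype (log2 ratio 1.51), and 1.47% of all genes were as high. On the gp130 KO array the ratio was 0.39 (1.31-fold). Ppp1r15a, or GADD34, is the phosphatase subunit that removes the phosphate from eIF2alpha and so ends the response. It was read at 871, 2525 and 885, which is 2.58-fold above wildtype on the LIFR KO array (log2 ratio 1.36) and level with wildtype on the gp130 KO array (0.05). Over the alternative processings the ratio of the LIFR KO to wildtype ran from 1.04 to 1.68 for Ddit4 and from 0.95 to 1.54 for Ppp1r15a.

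Nupr1, Eif4ebp1 and Ddit3 were within 1.5-fold of wildtype on both knockout arrays with the main processing. Nupr1, a small chromatin-associated stress protein, had ratios of 0.15 and 0.47 on the LIFR and gp130 KO arrays. Eif4ebp1, a repressor of cap-dependent translation, had 0.18 and 0.08. Ddit3, which codes for CHOP, the factor linked to cell death in prolonged stress, was dim at 93.0, 119 and 79.8, and its ratios of 0.18 and -0.19 stood within the scanner error of 0.21. With normexp its ratio on the LIFR KO array became 1.09 (2.13-fold). Thus Atf4, Trib3 and Sesn2 lay below wildtype on the LIFR KO array while Ddit4 and Ppp1r15a lay above it.

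The enzymes of serine, glycine and folate metabolism split into 4 that were near wildtype and 1 that was not. Phgdh, Psat1 and Psph catalyse the 3 steps of serine synthesis from a glycolytic intermediate, and their signals on the wildtype array were 13939, 14842 and 6811. The 6 ratios of these 3 genes in the 2 knockouts ran from -0.03 to 0.13, though with normexp the 3 fell to between -0.46 and -0.52 on the LIFR KO array. Psat1, the gene with the brightest probe of the group, gave 14842, 16759 and 14617, which is a ratio of 0.0047 and 0.0042. Shmt2, which moves the serine carbon onto folate in mitochondria, had ratios of -0.20 and -0.02. Mthfd2, the mitochondrial dehydrogenase that acts next on that carbon, was read at 1034, 746 and 585. It was thus lower on both knockout arrays, by 1.56-fold (log2 ratio -0.64) and 1.74-fold (-0.80), each beyond the half-width of 0.14 and 0.15.

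Among the enzymes of other amino acids, 5 were measured and all 5 lay below wildtype on the LIFR KO array and 4 on the gp130 KO array, where 53.8% and 45.4% of all genes did. Asns, asparagine synthetase and a standard readout of ATF4, was the brightest probe at 8516, 8990 and 7799. Its ratios of -0.09 and -0.10 were inside the spot half-width, and on the LIFR KO array it turned to 0.08 with arrays centred on the median. Aldh18a1, which starts proline synthesis from glutamate, was read at 759, 659 and 483, with ratios of -0.37 and -0.62. Cth, which makes cysteine from cystathionine, lay at 763, 646 and 569 and gave -0.41 and -0.40, and a second probe gave -0.38 and -0.29. Cbs, the enzyme before it, gave -0.29, which became 0.69 with normexp, and 0.06. Pck2, the mitochondrial enzyme that makes phosphoenolpyruvate, was read from 10 spots at a mean of 40.2, 26.3 and 30.1. Its log2 ratios were -0.78 (1.72-fold lower, half-width 0.42) and -0.39 (half-width 0.59), and the first of these turned to 1.56 with normexp. These half-widths are those of single spots and are too wide for a mean of 10. The scanner error of the 2 ratios was 0.10 and 0.08.

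The 8 amino acid transporters did not share a direction. Slc7a3, a carrier of cationic amino acids, was dim on the wildtype array at 31.4 and higher at 75.3 on the LIFR KO and 74.3 on the gp130 KO array. With the main processing the knockout arrays were alike and the wildtype array was the low one, with log2 ratios of 1.09 (2.13-fold, half-width 0.42) and 1.27 (2.41-fold, half-width 0.59). With normexp these became 1.77 (3.40-fold) and 0.47 (1.38-fold), and the gp130 KO array lay below the LIFR KO array (-1.30). With normexp fitted without the stray-signal spots the ratios fell to 0.34 and 0.46, so neither remained past 1.5-fold. Slc7a1, the related carrier with the brightest probe of the group, had 6457, 6811 and 5383 and ratios of -0.09 and -0.24.

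Slc7a11 and Slc3a2 form the cystine-glutamate exchanger, and Slc3a2 is also the heavy chain of the leucine carrier Slc7a5. Slc7a11 was read at 77.1, 55.5 and 50.9, so both knockout arrays were below wildtype, with ratios of -0.65 (1.56-fold) and -0.57 (1.49-fold) and half-widths of 0.33, the first of which turned to 1.09 with normexp. Slc3a2 was read at 5152, 3802 and 3787, with ratios of -0.61 (1.53-fold) and -0.42. Its spot on the LIFR KO array lay in raised local background, 40 against an array median of 23.5, which is small beside its signal, and the part of this in the ratio was not tested. Slc7a5 itself had ratios of -0.07 and -0.16.

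Slc38a2, the sodium-coupled carrier of neutral amino acids that rises when these are scarce, was read at 4811, 4162 and 5789. The LIFR KO array was below wildtype (-0.38) and the gp130 KO array above it (0.29), which made the gp130 KO 1.59-fold higher than the LIFR KO (0.67). Slc1a4, a carrier of alanine, serine and cysteine, had ratios of -0.20 and -0.05. The glycine carrier Slc6a9 was at 668, 920 and 669, with ratios of 0.29 and 0.03, and its second probe gave 0.28 and 0.06.

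Of the remaining 3 genes, Stc2, which codes for the secreted glycoprotein stanniocalcin, was read at 92.9, 67.9 and 61.4. It was lower on both knockout arrays, with ratios of -0.62 (1.54-fold) and -0.57 (1.49-fold) and half-widths of 0.33, and the first turned to 1.08 with normexp. Xpot, the exporter of tRNA from the nucleus and the brightest probe of the 3, had ratios of 0.02 and 0.07. Vldlr, a lipoprotein receptor, had -0.13 and 0.10, both inside the half-width, and the first turned to 1.22 (2.34-fold) with normexp.

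**Figure D2:**
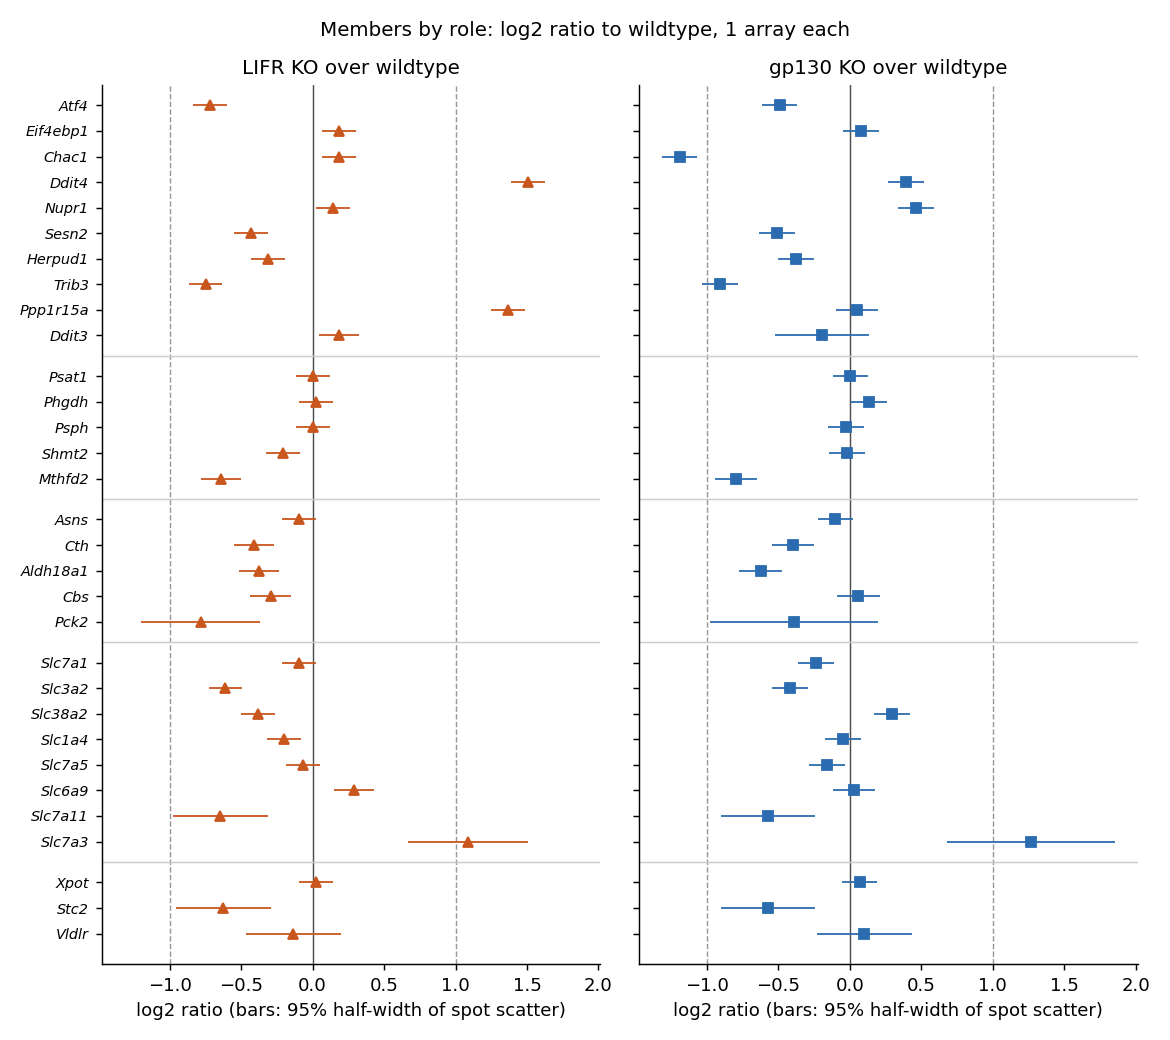
Log2 ratio to wildtype of each measured gene on the LIFR KO (left) and gp130 KO (right) arrays, by role. Bars are the 95% half-width of a ratio of single spots, from repeated spots, and leave out the scatter between cultures. Dashed lines mark 2-fold. Ddit4, Ppp1r15a and Slc7a3 lie past 2-fold above on the left, Slc7a3 above and Chac1 below on the right, and with arrays centred on the median all points on the left move up together.

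Counted over the set, 3 of the 31 genes were at least 2-fold higher on the LIFR KO array than on the wildtype array (9.68%), against 2.87% of the 14544 genes compared. These were Ddit4, Ppp1r15a and Slc7a3. None of the 31 was at least 2-fold lower, against 1.58% of all genes. At 1.5-fold the same 3 were higher (6.5% of all genes) and 7 were lower (22.6%, against 7.41% of all genes). The 7 were Atf4, Trib3, Mthfd2, Pck2, Slc7a11, Slc3a2 and Stc2. That count rests on the scaling: it was 5 after quantile normalisation (5.4% of all genes), 4 in the authors' deposited log2 values (5.4%), and 1, Pck2, with arrays centred on the median. With that centring 3.78% of all genes were 1.5-fold lower, so the share in the set was no longer above it. The median over the 31 genes was -0.13 and that over all genes -0.03, and centring turned these to 0.037 and 0.12. In both scalings the set's median was the lower one.

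For the gp130 KO over wildtype, 1 gene was at least 2-fold higher, Slc7a3, where 1.59% of the 14917 genes compared were. A single gene was at least 2-fold lower, Chac1, where 0.791% of all genes were. At 1.5-fold 1 was higher, against 4.57% of all genes, and 4 were lower (12.9%), against 3.12% of all genes. The 4 were Chac1, Trib3, Mthfd2 and Aldh18a1, and they were the same 4 under quantile normalisation, median centring and in the authors' deposited values. The normexp correction left 3 of them, without Aldh18a1. The set's median was -0.10 and that of all genes 0.03.

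**Figure D3:**
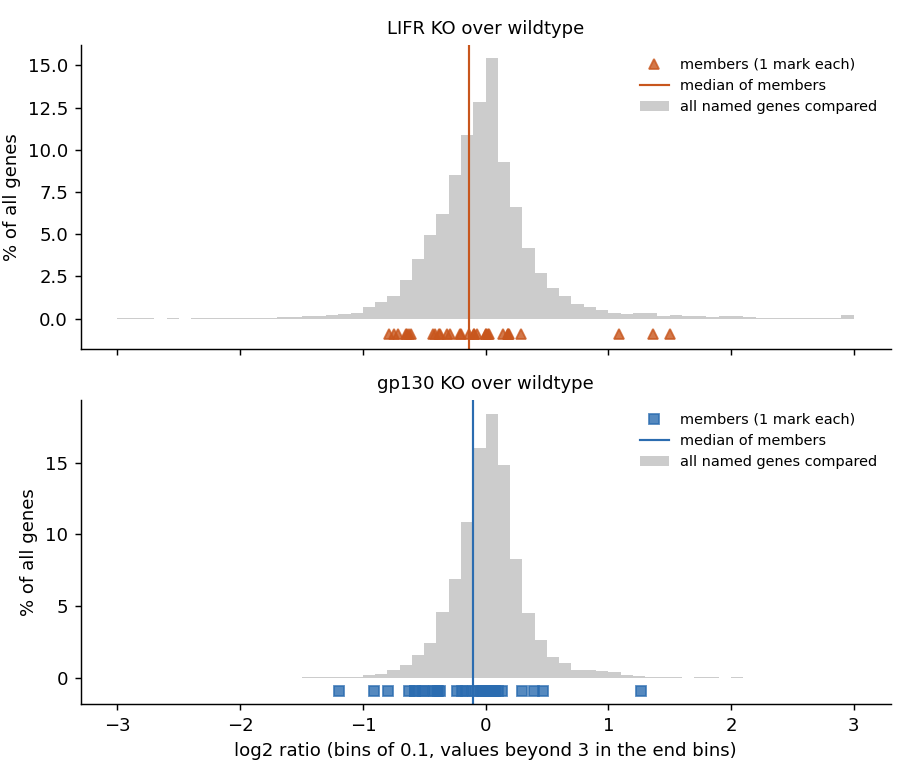
Distribution of the log2 ratio to wildtype over all named genes compared (grey, % of genes per bin of 0.1) for the LIFR KO (top) and gp130 KO (bottom), with the 31 measured genes as marks under it and their median as a line. The medians of the set, -0.13 and -0.10, lie left of those of all genes, -0.03 and 0.03, and 3 marks on the top and 1 on the bottom stand beyond 2-fold to the right; with arrays centred on the median the top line moves to 0.037.

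The comparisons share the wildtype array, so a low or high wildtype value enters both, and only their values are set side by side. Ratios below 0 were found for 19 of the 31 genes on the LIFR KO array (53.8% of all genes) and likewise for 19 in the gp130 KO (45.4% of all genes). On both knockout arrays 16 genes had a ratio below 0, 9 had one above 0 on both, and 6 had opposite signs. This split was not counted over all genes. Because the shared wildtype array favours equal signs, the split is not read as a trait of the set. Against wildtype, 8 genes lay above and 15 below by more than their spot half-width on the LIFR KO array, where 27.5% and 30.7% of all genes measured on both arrays did. On the gp130 KO array 5 lay above and 13 below, against 22.9% and 16.8% of all genes. Pck2, a mean of 10 spots, was held to the half-width of single spots and was not among the 13. Where a gene had several probes well above background, they differed by at most 0.16 and 0.27 in these ratios. Set against each other, the gp130 KO array had 0 of the 31 genes at least 2-fold above the LIFR KO array (1.28% of 14759 genes) and 3 at least 2-fold below it (2.07%). Those 3 were Chac1, Ppp1r15a and Ddit4, at -1.38, -1.32 and -1.11, and with normexp they were at -0.97, -0.90 and -0.64, all under 2-fold. A ratio below 0 was found for 16 of the 31 (37.4% of all genes). Slc38a2 was the one gene at least 1.5-fold above (5.37% of all genes), and no further gene was 1.5-fold below (4.69%).

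Genes with a match to the composite element were compared as a description. Matches were not looked up to choose the list, but the genes were chosen as known targets and partners of ATF4. For the 9 measured genes with a match the median ratio was -0.20 on the LIFR KO and -0.37 on the gp130 KO array. For the 18 without one it was -0.15 and -0.02. In each knockout 7 of the 9 lay below 0, against 10 of the 18, and of all genes 59.7% and 53.2% of those with a match did and 53.3% and 45.0% of those without. For the gp130 KO over the LIFR KO 4 of the 9 lay below 0. Over all genes with a promoter the medians were -0.06 and -0.01 for the 352 and 365 compared that held a match, and -0.02 and 0.03 for the rest. On the gp130 KO array Chac1 and Trib3 were the lowest of the 9, while Nupr1, with a match at 110 bases before its start, was above wildtype.

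The kinases and subunits upstream of ATF4 were read next. Of 15 genes of eIF2alpha phosphorylation and eIF2 control, 1 was at least 2-fold from wildtype, on the LIFR KO array, where 2.87% of all genes were higher and 1.58% lower. It was Eif2ak3, which codes for PERK, the kinase that answers unfolded protein in the endoplasmic reticulum. Its signal was 442 on the wildtype, 1172 on the LIFR KO and 725 on the gp130 KO array, higher on both knockout arrays by 2.36-fold (log2 ratio 1.24) and 1.67-fold (0.74). The alternatives gave 0.94 to 1.41 and 0.66 to 0.76. Eif2ak4, the GCN2 kinase that senses uncharged tRNA, had ratios of 0.13 and -0.07, and Eif2ak1 and Eif2ak2 had ratios up to 0.27. The brightest probe of the list, Eif2s1, coding for eIF2alpha, gave -0.10 and -0.09, and the list's medians were 0.01 and -0.01.

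None of the 8 leucine zipper partners of ATF4 reached 2-fold in either knockout. Cebpb, the brightest, was read at 21391, 29818 and 22623, with ratios of 0.31 and 0.11. Atf3, an ATF4 target and repressor named after its values were seen, lay at 398, 545 and 215, 1.82-fold below wildtype on the gp130 KO array (-0.86) and 1.22-fold above it on the LIFR KO array, where its spot was among those in raised local background. Over the alternatives its ratio on the gp130 KO array ran from -0.87 to -0.66.

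The 12 tRNA synthetases known as ATF4 targets and the 8 other cytosolic ones lay close to wildtype. None of the 20 passed 1.5-fold in either knockout, apart from 1 that did so with normexp on the LIFR KO array, and the medians were 0.01 and -0.06 for the targets and 0.04 and 0.06 for the others. Gars, the brightest of the targets, was read at 16560, 18002 and 15638. The lowest ratio among the targets was that of Mars1, at -0.38 on the LIFR KO array.

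Chaperone genes of the ATF6 and XBP1 branches, which answer unfolded protein beside PERK, had 17 of 18 genes measured and none past 2-fold. Hspa5, the chaperone BiP and the brightest, was at 50390, 62109 and 48007, with ratios of 0.13 and -0.04. On the LIFR KO array 2 of the 17 passed 1.5-fold, both above wildtype (6.5% of all genes) and both named after their values were seen: Syvn1, a ubiquitin ligase of protein degradation, at 0.79, and Dnajb9, a co-chaperone, at 0.73. Neither call held throughout: Syvn1 was at 0.31 with normexp and Dnajb9 at 0.46 as the mean over its probes. The medians of the list were 0.12 and 0.02.

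Neither the other folate and glycine enzymes nor the other transporters moved as lists. Of 10 folate and glycine enzymes compared, 0 were 2-fold from wildtype, and the list's medians were -0.07 and -0.04. The brightest of that list was Mthfd1, with ratios of -0.05 and 0.08. Among 20 other amino acid transporters 10 passed the background flag on each array, and the brightest, the taurine carrier Slc6a6, had ratios of 0.32 and 0.28. Slc3a1 was not well above background on the wildtype array and was so on the gp130 KO array, at least 2.26-fold higher on a signal of 15.4, or 1.49-fold with the lowest single spot as the floor. Neither the 15 hypoxia genes measured nor the 10 glutathione genes held one past 2-fold. Their medians were -0.09 and -0.05 for hypoxia and 0.19 and 0.21 for glutathione, with Ldha (0.10 and 0.17) and Gsr (0.25 and 0.37) the brightest. On the gp130 KO array Ankrd37 (0.68) and Hk2 (-0.60), named after their values were seen, were the hypoxia genes past 1.5-fold, and a part of oxygen in the Ddit4 values was not tested.

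**Figure D4:**
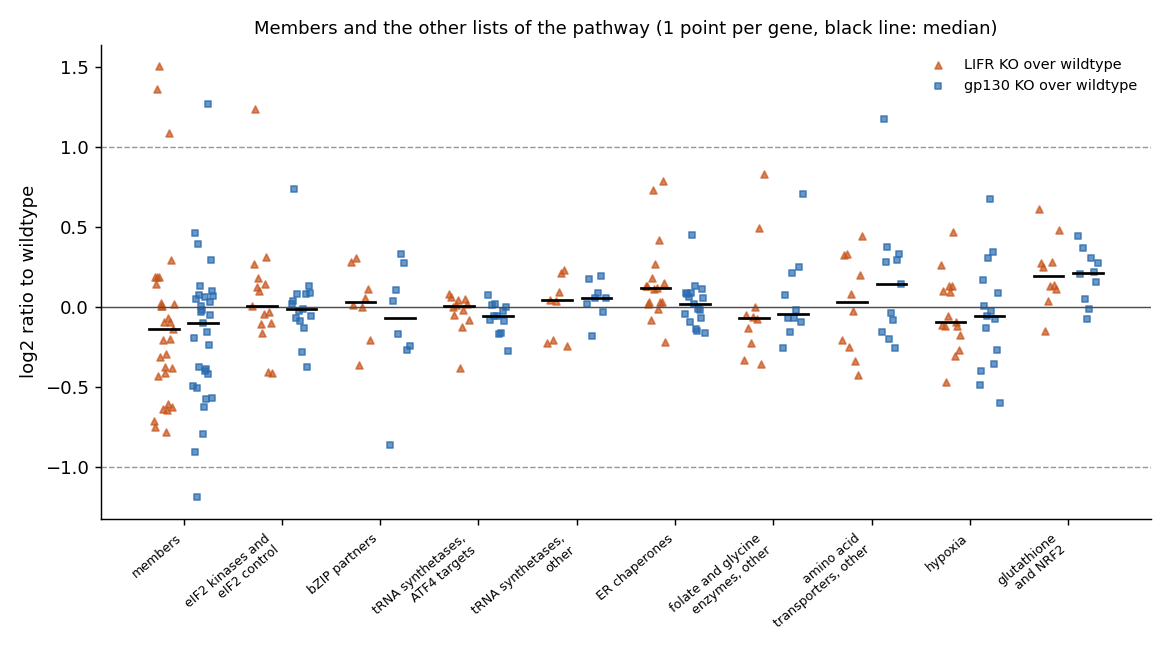
Log2 ratio to wildtype of the 31 genes of the set and of the other lists of the pathway, LIFR KO as triangles and gp130 KO as squares, with 1 point per gene, a black line for each median and dashed lines at 2-fold. The 2 groups of tRNA synthetases stay within 1.5-fold with this scaling, and Eif2ak3 (1.24) and Slc3a1 (a bound of 1.17) are the points past 2-fold outside the set.

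Several facts of the arrays as a whole bear on these values. Neither Lifr nor Il6st told the genotypes apart: Lifr was read at 34.9, 30.0 and 34.7 and Il6st at 329, 369 and 299, and where the probes lie relative to the lesions is not given in the sources used here, so the arrays are called by their labels. Of 15 embryonic stem cell markers 10 passed the background flag on each of the arrays and 5 (Sox2, Zfp42, Dppa3, Fgf4 and Nr0b1) on none, with summed signals of 2952 to 3098. The 5 undetected markers are at odds with the label of embryonic stem cells, and the identity of the cells was not tested. The median ratio of the 10 was -0.32 on the LIFR KO and 0.09 on the gp130 KO array. Nanog (-0.71), Pou5f1 (-0.63) and Lin28a (-0.61) were over 1.5-fold lower on the LIFR KO array (7.41% of all genes). Dppa5a (0.49), Klf4 (0.16) and Tdgf1 (0.14) were above wildtype there. Pou5f1, dim at 31.2, 22.7 and 20.3, was also 1.51-fold lower on the gp130 KO array (-0.59), where Dppa5a was 1.97-fold higher (0.98). Epithelial markers were detected for 11 of 12 genes with summed signals, not scaled between arrays, of 74248 to 90653. The highest sum was on the LIFR KO array, which also had the highest 75th percentile (750, against 666 on the wildtype array). There Cldn4 was 2.21-fold above wildtype (130, 322 and 150), with a spot in raised local background, and Esrp1 was 1.64-fold below it (-0.71). The same counts were 6 of 12 for fibroblast markers (2871 to 3186), 6 of 7 for leukocyte (1661 to 2008), 5 of 11 for endoderm (3612 to 3948) and 4 of 7 for neural markers (5267 to 6269). Of the fibroblast markers Col1a1 was at 70.4, 257 and 92.9. Dcn was at 16.5, 18.7 and 33.6, and its LIFR KO value was not well above background. Of the 10 fibroblast markers compared with wildtype, 4 lay below it on the LIFR KO array (53.8% of all genes) and 2 on the gp130 KO array (45.4%). On the LIFR KO array 4 of the 10 ratios were bounds. Those of Col3a1, Prrx1 and Dcn were held at 0 and so not counted as below, though Col3a1 (13.8 and 8.59) and Prrx1 (14.6 and 4.41) had lower signals there than on the wildtype array. The part of these marker lists in the ratios above was not tested, and in a mixed culture a shift in the kinds of cell and in RNA per cell cannot be told apart. The LIFR KO array had 909 spots in raised local background, against 103 and 145 on the wildtype and gp130 KO arrays. Of the measured genes of the set only Slc3a2 was read from one of them.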

How the data were processed

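Expression was measured with 3 single-colour Agilent arrays, 1 per genotype, and each array's group was taken from its label. The deposited spot intensity is, per the file headers, the processed signal of Feature Extraction 11.0.1.1; the submitters' processing notes give version 9.1 of it. Other deposited values, per the file headers, are flags of 0 or 1 for spots well above background and outliers. The authors' deposited series matrix holds log2 values with a median of 5.38 on each array, which correlated with the log2 signal at r = 0.995 to 0.999, and the normalization behind them is not given in the sources used here. All arrays share 1 scan time and give no batch to block on.

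Outlier spots were left out, spots of a probe were averaged on the log2 scale, and each array was scaled to its 75th percentile (signals of 666, 750 and 654). Probes were named by unversioned accession through RefSeq's gene table of GRCm38.p6 (27234 of 39429 probes, 69.1%), and each gene took the value of its brightest probe by mean. A gene was compared if well above background on at least 1 of the 2 arrays; otherwise dim sides were set to the array's lowest signal well above background and the ratio given as a bound. Computations used Python 3.11.15, pandas 2.3.3, R 4.3.3 and limma 3.58.1 (normexp, offset 50) and were tested on simulated data. The number of arrays limits the precision, and no significance test was possible.

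The genes and lists were chosen with earlier results of these data known. All 32 genes are accounted for. Genes at least 1.5-fold from wildtype and the brightest probe of each role are given with their signals, and of other lists those at least 2-fold from wildtype and the brightest. Alternatives covered background correction, scaling, filters, floors, probe choice, stray signal, outliers and the threshold.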

Additional observations from a re-analysis of the deposited data

Results flagged for a closer look

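For 2 genes of the set the knockouts lay on opposite sides of wildtype by more than the scatter of repeated spots. The log2 ratio of Chac1 was 0.19 in the LIFR KO and -1.19 on the gp130 KO array. Slc38a2 had -0.38 on the LIFR KO array and 0.29 on the gp130 KO array. With 1 array per genotype the difference between the knockouts was not tested. For Slc38a2 both signs held under all 12 alternatives, with -0.80 to -0.21 and 0.25 to 0.32, while Chac1 on the LIFR KO array ran from -0.21 to 0.36. Among the 12, the filters on dim probes and the floor could not change these genes, which passed the background flag on each array.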

How the results depend on the processing

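No paired analysis was possible because each group had 1 array. Counts here are of the 31 measured genes at least 2-fold from wildtype, or from the LIFR KO where so named. The normexp background correction, on an array with much stray signal, put 3304 of all genes at least 2-fold higher on the LIFR KO array. It gave 7 genes of the set higher and 2 lower there with a median of -0.37, where 3304 and 94 of 14534 genes were. For the gp130 KO over wildtype it left 0 higher, where 10 of 14921 genes were. For the gp130 over the LIFR KO it gave 1 higher and 6 lower, where 47 and 3273 of 14755 genes were. Those 6 (Ddit3, Pck2, Slc7a11, Slc7a3, Stc2 and Vldlr) include none of the 3 otherwise called. Under it Pck2, Slc7a11 and Stc2 reversed on the LIFR KO array, to 1.56, 1.09 and 1.08. Fitted without the stray spots, a setting chosen after seeing the data, normexp put 112 of all genes at least 2-fold higher on the LIFR KO array in place of 3304. It still left 0 of the set higher for the gp130 KO over wildtype, where 9 of 14632 genes were, since Slc7a3 fell to 0.46. Centring each array on its median moved the median of all genes to 0.12 for the LIFR KO over wildtype and -0.08 for the gp130 over the LIFR KO, and the set's medians to 0.037, which is a reversal, and -0.15. It left 15 of the 31 genes below 0 on the LIFR KO array, where 19 were, while the share of all genes below 0 went from 53.8% to 32.8%. A threshold of 1.5-fold gave 7 lower for the LIFR KO, 4 lower for the gp130 KO and 1 higher for the gp130 over the LIFR KO. The other 105 of 117 counts and medians held, those with the 75th percentile taken over probe means, also a setting chosen after seeing the data, among them. Part of that number was fixed in advance. All 31 genes passed the background flag on each array, so the filters on dim probes and the floor could not change their values. Nor could the threshold change a median. Signals under 100, as for Slc7a3, Pck2, Slc7a11, Stc2, Ddit3 and Vldlr, limit how small a ratio can be read. Ratios of genes read from a single spot have no settled sign within the spot half-width.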
